A study of Mus musculus with 4 samples.

Results

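Abundant long noncoding RNAs (lncRNAs) were examined in E14 cells, a mouse embryonic stem cell (mESC) line, with and without Npac. Members were selected on 2 values in the deposited gene table, an lncRNA biotype and a sum of at least 2000 reads over the 4 libraries. The rule left out 9 lncRNAs by name, H19 among them, of which 2 reached this sum. The selection gave 55 genes of the 56748 listed, where 11288 genes are lncRNAs and 6706 of those had a read. The groups were WT cells (libraries WT1 and WT2) and Npac KO cells (libraries KO1 and KO2), and the labels name no treatment, time point or other allele that separates them. Each KO library comes from 1 of 2 clonal lines made by CRISPR/Cas9 and puromycin selection, and no feeder layer was used in culture. Cloning and selection are not described for the WT cells, so they go with genotype, and their part in the values was not tested. Nothing in the labels says that WT1 and WT2 were separate cultures, so the p-values measure the spread between these libraries, which may be technical. Npac is listed as Glyr1 and had 3961 (WT1), 3115 (WT2), 744 (KO1) and 888 (KO2) reads, which left 22.7% of the WT level (log2 fold change -2.14, edgeR adjusted p = 0.00174).

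An lncRNA is a long transcript without a protein product that is mostly made by RNA polymerase II, as mRNA is, and is often capped and spliced. Some lncRNAs act as RNA, such as the scaffolds of nuclear bodies. Others are carriers whose introns or exons hold small nucleolar RNAs (snoRNAs), which guide ribosomal RNA modification, or microRNAs, and some start beside a protein-coding gene or run antisense to one. In the GENCODE M21 annotation 48 of the 55 members had an entry, 23 as intergenic lncRNAs, 20 as processed transcripts, 2 as antisense, 1 as bidirectional and 2 as protein-coding genes. The 2 annotated there as protein-coding were Erdr1 and Gm47283, so the lncRNA label is uncertain for this pair.

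Mir17hg (ENSMUSG00000089726) is the precursor of 6 microRNAs of the miR-17 to miR-92a cluster, and it was the member with the largest fall. Its microRNAs are shown because they are the products of the transcript, with the seed (bases 2 to 8 from the 5′ end, which pair with targets) in capitals. The mature sequences are RefSeq's (GRCm38.p6), on the plus strand of chromosome 14.
mmu-miR-17-5p: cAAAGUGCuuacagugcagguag
mmu-miR-20a-5p: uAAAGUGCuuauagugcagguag
mmu-miR-18a-5p: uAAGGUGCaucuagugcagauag
mmu-miR-19a-3p: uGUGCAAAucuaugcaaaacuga
mmu-miR-19b-3p: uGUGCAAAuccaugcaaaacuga
mmu-miR-92a-3p: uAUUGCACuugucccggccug
By seed they form 4 groups: miR-17-5p with miR-20a-5p, miR-19a-3p with miR-19b-3p, and miR-18a-5p and miR-92a-3p alone. The 6 microRNA genes have entries of their own in the gene table, each with 0 reads in every library, so only the host transcript was measured.

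Of the snoRNA hosts, 10 had a RefSeq start. Transcripts of the 5′TOP class start with a C followed by more C and T letters and are translated according to growth signals. The windows below run from 30 bases before the start to 40 bases from it, with the unbroken C and T letters at the start in capitals; where RefSeq gives several starts, the one with the longest such stretch was taken. They are shown for the called hosts with a RefSeq start, Gas5 (higher), Snhg1 and Snhg17 (lower), and for 4 hosts that were not called, with and without such a stretch.
Gas5, chr1:161035136-161035205, plus strand: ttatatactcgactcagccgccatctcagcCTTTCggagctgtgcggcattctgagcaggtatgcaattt
Snhg1, chr19:8723457-8723526, plus strand: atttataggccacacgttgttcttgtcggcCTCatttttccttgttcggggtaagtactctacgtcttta
Snhg17, chr2:158361470-158361539, minus strand: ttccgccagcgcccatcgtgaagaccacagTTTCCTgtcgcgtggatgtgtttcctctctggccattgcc
Snhg8, chr3:123508297-123508366, minus strand: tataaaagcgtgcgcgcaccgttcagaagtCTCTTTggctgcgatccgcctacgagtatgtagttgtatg
Snhg12, chr4:132308648-132308717, plus strand: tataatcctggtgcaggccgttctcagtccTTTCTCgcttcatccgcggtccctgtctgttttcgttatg
Zfas1, chr2:167062904-167062973, plus strand: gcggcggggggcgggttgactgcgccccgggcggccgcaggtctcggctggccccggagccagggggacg
Snhg16, chr11:116671630-116671699, plus strand: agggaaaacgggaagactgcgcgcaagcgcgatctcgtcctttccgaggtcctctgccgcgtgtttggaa
A start at C with at least 4 such letters was found in 2 of the 10 hosts, Gas5 and Snhg8, and in 3.76% of all 32851 RefSeq starts. That share counts every start, whereas Gas5 and Snhg17 had 2 starts each and the longest stretch was taken, so the rates are not alike. Gas5 was higher in Npac KO cells and Snhg8 was not called, with lower reads in both KO libraries. Snhg1 starts with C but its stretch is 3 letters long, Snhg17 and Snhg12 have stretches of the same kind that begin with T, and Zfas1 and Snhg16 have none.

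Of the 55 members, 32 matched a RefSeq promoter (250 bases before to 50 after the start), and for 27 of these the RefSeq start lies within 300 bases of the GENCODE M21 gene start. They were searched on both strands for 7 motifs, none of which contains another. Where RefSeq gives several starts, the one nearest the GENCODE M21 gene start was taken here. For Gas5 and Snhg17 this start differs from that of the windows above. The GC box GGGCGG was in 19 of the 32 and in 35.7% of all promoters. The CCAAT box (CCAAT) was in 15 and in 37.4% of all promoters, and the E-box CACGTG was in 5 and in 7.15%. The TATA box TATAAA was in 4 (13.6% of all promoters), CCGGAAG of ETS factors in 3 (8.86%), the cyclic AMP element TGACGTCA in 2 (1.79%) and CGCATGCG of NRF1 in 1 (1.87%). A match only describes the window. Shown are the promoter of Snhg1, which starts opposite Slc3a2, and those of AU020206, which rose, and B230354K17Rik, which fell, with the motif matches in capitals.
Snhg1, chr19:8723237-8723536, plus strand: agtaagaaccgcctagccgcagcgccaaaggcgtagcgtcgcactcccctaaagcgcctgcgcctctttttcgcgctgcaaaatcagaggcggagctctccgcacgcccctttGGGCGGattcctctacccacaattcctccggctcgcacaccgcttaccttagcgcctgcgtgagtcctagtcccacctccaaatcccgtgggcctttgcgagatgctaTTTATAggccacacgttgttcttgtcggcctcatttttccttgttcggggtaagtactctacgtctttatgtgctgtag
AU020206, chr7:75782071-75782370, minus strand: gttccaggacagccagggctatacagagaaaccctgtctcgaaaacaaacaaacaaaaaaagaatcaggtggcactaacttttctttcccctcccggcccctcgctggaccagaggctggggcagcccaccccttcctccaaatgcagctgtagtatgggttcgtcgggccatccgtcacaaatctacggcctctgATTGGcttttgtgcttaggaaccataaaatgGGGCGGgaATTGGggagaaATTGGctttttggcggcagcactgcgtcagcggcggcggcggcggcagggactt
B230354K17Rik, chr17:45433581-45433880, plus strand: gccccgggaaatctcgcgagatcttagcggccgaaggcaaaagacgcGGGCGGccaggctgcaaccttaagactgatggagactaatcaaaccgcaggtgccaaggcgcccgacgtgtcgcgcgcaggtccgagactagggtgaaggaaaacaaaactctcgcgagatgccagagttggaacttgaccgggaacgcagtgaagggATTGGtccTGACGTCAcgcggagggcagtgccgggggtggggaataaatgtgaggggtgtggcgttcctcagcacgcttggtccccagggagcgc
Snhg1 holds a GC box and, near its start, a TATA box read on the opposite strand (TTTATA). AU020206 holds 3 copies of CCAAT on the opposite strand (ATTGG) and a GC box. B230354K17Rik holds a GC box, a CCAAT on the opposite strand and TGACGTCA. Of the 6 promoters of members that rose, 3 held a GC box and 3 a CCAAT box, and of the 6 windows of members that fell, 2 and 3 did. The window of Mir17hg, one of the latter, starts at a RefSeq position 1511 bases inside the GENCODE M21 gene and holds miR-20a-5p and miR-19b-3p, so it is not the promoter of the whole transcript, and none of the motifs was found in it.

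The 55 lncRNAs were compared between genotypes to see which moved with loss of Npac. In Npac KO cells 11 were higher and 10 were lower by edgeR's quasi-likelihood test (adjusted p under 0.05 over all genes tested and a fold change over 1.5), and 34 were not called. The members that rose were Gm42047, Gm47283, Erdr1, Gas5, AU020206, Snhg6, Platr14, Malat1, EU599041, Snhg4 and Lncenc1. Those that fell were Mir17hg, Gm17066, Gm21781, B230354K17Rik, ENSMUSG00000120144, Gm41609, ENSMUSG00000121095, 2410003I16Rik, Snhg1 and Snhg17. These are 20.0% higher and 18.2% lower, where 11.0% of the 18157 genes tested were higher and 10.7% lower. Among the 6885 tested genes of any biotype with at least 2000 reads, 13.0% were higher and 11.1% lower, and among the 1744 other lncRNAs tested 8.83% were higher and 11.8% lower. The selection sums both genotypes, so a gene can pass through the genotype where it is high: 7 members had under 1000 reads in WT cells, of which 6 were called higher, and 12 had under 1000 in Npac KO cells, of which 7 were called lower. Of the 36 members with at least 1000 reads in each genotype, 5 were higher and 3 lower.

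**Figure D1:**
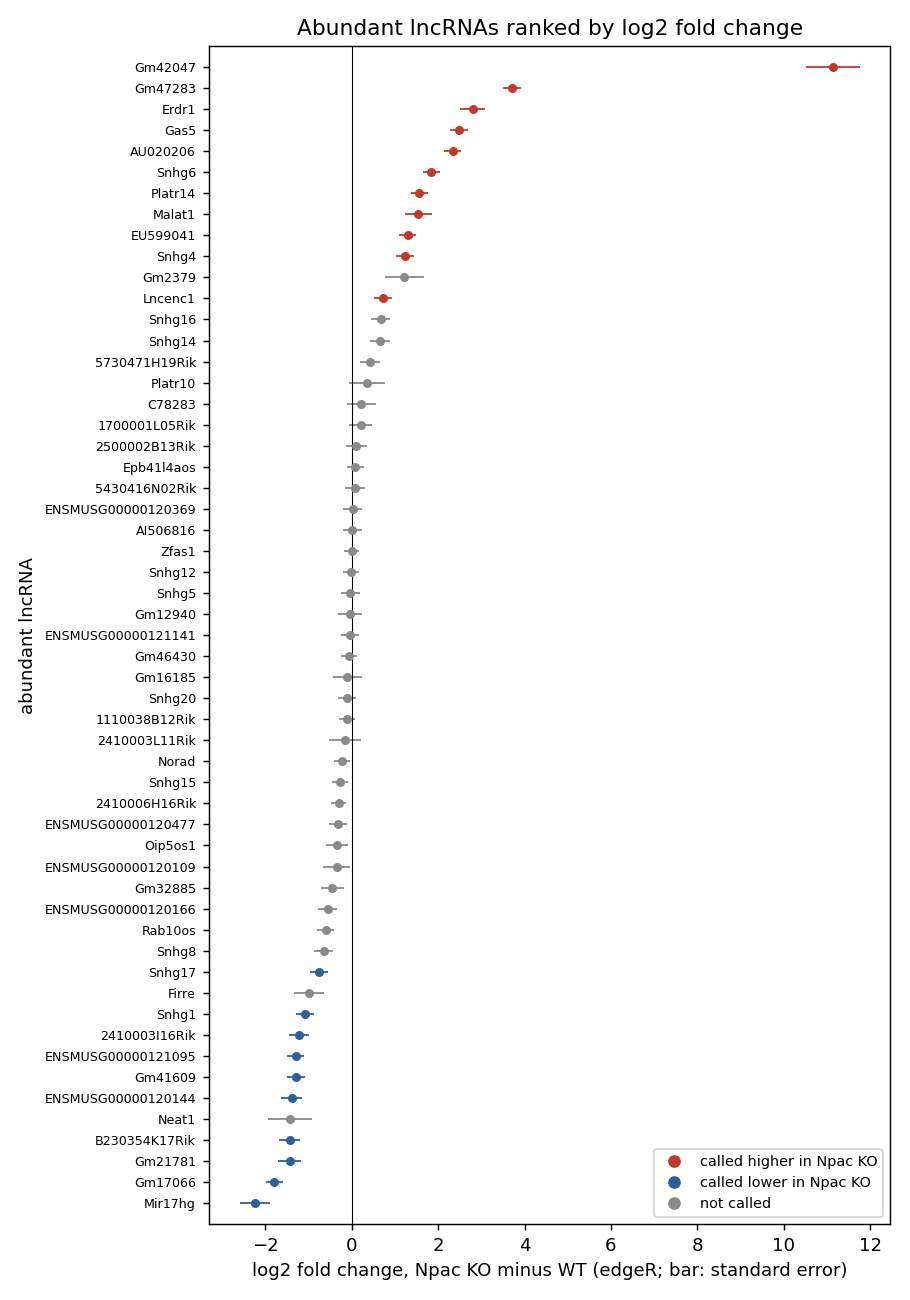
Log2 fold change (Npac KO minus WT) of each of the 55 abundant lncRNAs, ranked; points are edgeR estimates and bars their standard errors, with called members in red (11 higher) and blue (10 lower). Gm42047 lies apart at 11.13, and the rest lie between -2.24 and 3.71.

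The median log2 fold change of the members was -0.04, against 0.00 over all genes tested. In absolute size the median was 0.60 for the members, 0.545 for all genes tested and 0.38 for the genes with at least 2000 reads. Both KO libraries lay above both WT libraries for 15 members (27.3%) and below them for 20 (36.4%), while over all genes tested 33.2% lay above and 32.5% below. The remaining 20 members overlapped. WT1 and WT2 differed by over 1.5-fold for 14 members, and KO1 and KO2 for 7.

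The abundant lncRNAs took a small part of each library. They held 0.507% (WT1), 0.402% (WT2), 0.583% (KO1) and 0.601% (KO2) of the counts. The KO shares exceeded the WT shares, by a mean of 0.137 percentage points. For all 11288 lncRNAs together the mean share went the other way, from 1.24% in WT to 1.15% in Npac KO cells, a difference of -0.092 percentage points with overlapping libraries. Without Gm42047 the shares were 0.507% (WT1), 0.402% (WT2), 0.480% (KO1) and 0.524% (KO2), and the groups overlapped. Malat1, Gm42047, Lncenc1 and Neat1 together made up 35.2% of the members' reads.

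On the FPKM scale, which divides by gene length, the median level of the members was 15.2 in WT and 15.4 in Npac KO cells, where tested protein-coding genes had medians of 5.37 and 5.10. The highest mean level in WT cells was 125 FPKM for 2410006H16Rik, a snoRNA host, followed by Snhg1 at 61.6 FPKM and Gm17066 at 56.6 FPKM. In Npac KO cells the order was Gm42047 at 160 FPKM, Malat1 at 111, Platr14 at 109 and 2410006H16Rik at 101, with Snhg1 at 28.9 and Gm17066 at 16.3. Mean levels of Malat1, Platr14 and 2410006H16Rik in Npac KO cells were close: their libraries read 102 and 120 FPKM for Malat1, 123 and 94.6 for Platr14, and 104 and 98.8 for 2410006H16Rik, so these 3 did not separate beyond their spread.

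**Figure D2:**
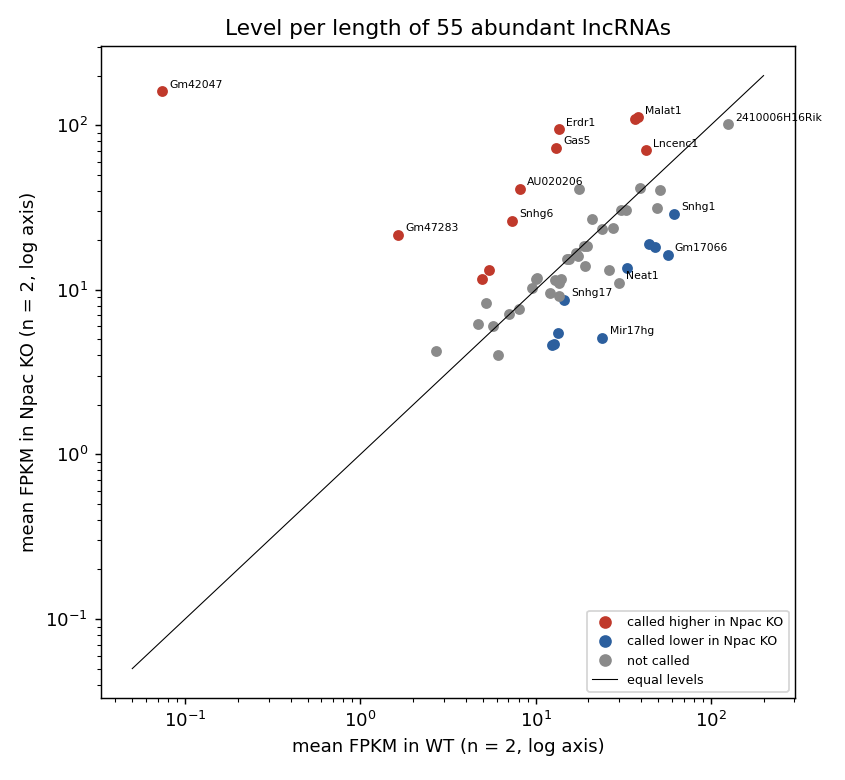
Mean FPKM in WT (x axis) and Npac KO cells (y axis) of the 55 members, 2 libraries each, both axes on a log scale, with the line of equal levels. Most members lie near the line, and Gm42047 lies far above it, at 0.0741 FPKM in WT and 160 FPKM in Npac KO cells.

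Of the 3 abundant nuclear lncRNAs, Malat1 rose, and Neat1 and Firre were not called. Malat1 (ENSMUSG00000092341, chromosome 19 from 5845717 to 5852704, minus strand; coordinates as in the deposited tables), an RNA of nuclear speckles, had 5469 (WT1), 3187 (WT2), 11177 (KO1) and 14799 (KO2) reads. Both KO libraries exceeded both WT libraries, and its level rose from 270 ± 124 to 786 ± 96.0 CPM (normalized by TMM to the library size, SD, n = 2 per genotype, log2 fold change 1.54, standard error 0.32, edgeR adjusted p = 0.0145). For Malat1, WT1 was 1.96 times WT2 in CPM, and the log2 fold change was 1.13 without WT2 and 2.08 without WT1. Neat1 (ENSMUSG00000092274), the scaffold of paraspeckles that lies on the same chromosome from 5874736 to 5895898, had 15092 (WT1), 4898 (WT2), 4198 (KO1) and 3516 (KO2) reads. WT1 stood 3.52-fold above WT2 in CPM, the KO libraries lay below WT2, and the log2 fold change of -1.42 (standard error 0.50) did not pass (edgeR adjusted p = 0.0796). Without WT2 it was -2.07, without WT1 -0.27, without KO1 -1.64 and without KO2 -1.22. Each such fit keeps a single library of a genotype, so its spread comes from the other pair alone. Neat1 was called lower with no count filter (-1.42, edgeR adjusted p = 1.71e-09) and with a replicate block (-1.17, edgeR adjusted p = 0.00322). It was not called by DESeq2 (-1.43, DESeq2 adjusted p = 0.236) or by limma-trend on log2 FPKM (limma adjusted p = 0.179 and 0.171).

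Firre (ENSMUSG00000085396), an X-linked RNA that binds hnRNP U, had 4972 (WT1), 2574 (WT2), 1926 (KO1) and 1990 (KO2) reads. WT1 was again the highest, at 2.21 times WT2 in CPM, and the fall of the mean was not called (log2 fold change -0.98, standard error 0.34, edgeR adjusted p = 0.0736). Its log2 fold change was -1.45 without WT2 and -0.33 without WT1. Firre was called lower by DESeq2 (-0.99, DESeq2 adjusted p = 0.0163), with no count filter (-0.98, edgeR adjusted p = 0.000141) and with a replicate block (-0.88, edgeR adjusted p = 0.00844). It was not called by limma-trend on log2 FPKM (limma adjusted p = 0.135 and 0.129) or with upper-quartile normalization (edgeR adjusted p = 0.0745). Nor was it called with at least 10 reads in every library (edgeR adjusted p = 0.0713) or with chromosome medians removed (edgeR adjusted p = 0.0894).

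Of 15 paraspeckle proteins 2 were higher and 1 lower, with a median log2 fold change of 0.17: Smarca4, a chromatin remodeler, at 0.72 and Nudt21, a cleavage factor, at 0.69 were called higher, and Hnrnph3 at -0.86 lower. The core paraspeckle proteins Nono (-0.26), Sfpq (0.84) and Pspc1 (0.17) were not called. Of 15 nuclear speckle proteins 2 were higher, Rnps1 (2.09), a splicing and exon junction protein, and Srrm1 (0.74), and 1 was lower, Srsf5 (-0.67), with a median of -0.11. The end of Malat1 is cut by RNase P and RNase Z. Of 11 tested genes of these enzymes 2 were higher, Pop1 (2.86), an RNase P subunit, and Elac2 (0.93), RNase Z, and 0 were lower, with a median of 0.30. With chromosome medians removed, Nudt21 (chromosome 8) had 0.20, Elac2 (chromosome 11) 0.46 and Srsf5 -0.57, each under 1.5-fold. Against the background of 11.0% and 10.7% over all genes, these lists are described by counts only.

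The conserved cytoplasmic lncRNAs were not called. Norad, which binds Pumilio proteins, had 2168 (WT1), 2356 (WT2), 1628 (KO1) and 2278 (KO2) reads (log2 fold change -0.23, edgeR adjusted p = 0.418). In raw reads KO2 fell between the WT libraries, and in CPM both KO libraries were lower. Of the Norad transcript 51.6% matches Gm7292 on chromosome 6, which had 167 (WT1), 113 (WT2), 10 (KO1) and 3 (KO2) reads, so reads may be split between them. Oip5os1, also called Cyrano, which drives destruction of the microRNA miR-7, had 2493 (WT1), 1741 (WT2), 1547 (KO1) and 1870 (KO2) reads. The genotypes overlapped (log2 fold change -0.34, edgeR adjusted p = 0.356). The value was -0.66 without WT2 and 0.03 without WT1.

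Of the 3 abundant members in the list of mESC and developmental lncRNAs, Platr14 and Lncenc1 rose and Platr10 was not called. Platr14, one of the pluripotency-associated transcripts named for their expression in mESCs, had 1214 (WT1), 1507 (WT2), 4272 (KO1) and 3718 (KO2) reads. The groups did not overlap, and the level rose 2.95-fold (82.7 ± 4.77 to 244 ± 42.4 CPM, SD, n = 2; log2 fold change 1.56, standard error 0.20, edgeR adjusted p = 0.00321). Lncenc1, an lncRNA abundant in mESCs, had 5761 (WT1), 5020 (WT2), 8361 (KO1) and 9776 (KO2) reads. Its rise of 1.66-fold was near the limit (log2 fold change 0.73, edgeR adjusted p = 0.0396), and the call was kept without WT1 but lost without any one of the other libraries.

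Platr10 had 897 (WT1), 421 (WT2), 1023 (KO1) and 687 (KO2) reads, and the genotypes overlapped (log2 fold change 0.35, edgeR adjusted p = 0.575). Its log2 fold change was 1.10 without WT1 and -0.16 without WT2. Gm2379, which lies beyond the end of Lncenc1 on the same strand, was not called (log2 fold change 1.22, edgeR adjusted p = 0.0841). Leaving out single libraries gave 0.56 to 1.88 for Gm2379. Over the wider list of mESC and developmental lncRNAs, 33 were tested, of which 5 were higher and 6 lower (11.0% and 10.7% over all genes tested), with a median log2 fold change of 0.02, and the 6 lower ones are all below the read limit. Beside these, of 10 mESC marker genes 1 was higher (Klf2, on chromosome 8, at 0.97 and at 0.48 with chromosome medians removed) and 3 were lower (Zfp42 at -2.64, Klf4 at -1.32 and Tfcp2l1 at -1.24). Their summed reads were 93580 to 109294 in the WT and 63692 to 66362 in the KO libraries. Pou5f1 (-0.42), Sox2 (-0.53) and Nanog (-0.21) were not called. In CPM both KO libraries lay below both WT libraries for Pou5f1 and Sox2, as for 32.5% of all genes tested, and Nanog overlapped.

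Markers of other cell types were also read. Fibroblast markers summed to 1581 and 2158 reads in WT1 and WT2 and 942 and 1305 in KO1 and KO2, with Col3a1 at 0, 1 of 5 tested higher and 1 lower. Primitive endoderm markers summed to 4469 and 5240 reads in WT and 7295 and 7862 in KO libraries (1 of 6 higher, Sparc, on chromosome 11, at 0.66 and at 0.19 with chromosome medians removed). Trophectoderm markers summed to 810 and 1380 against 1694 and 1761 reads (1 of 4 higher, Krt18), and neural markers to 1399 and 1396 against 1337 and 1732 (1 of 5 higher, 1 lower). In bulk RNA a change in the number of cells of a type and in RNA per cell cannot be told apart, and the part of these markers in the lncRNA values was not tested.

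Of the 13 snoRNA hosts in the list, 8 were not called, 3 were higher (Gas5, Snhg6 and Snhg4) and 2 were lower (Snhg1 and Snhg17), where 13.0% of genes with at least 2000 reads were higher and 11.1% lower. Gas5 (ENSMUSG00000053332, chromosome 1 from 160861992 to 160866116), which carries box C/D snoRNAs and whose spliced RNA is a substrate of nonsense-mediated decay, had 872 (WT1), 858 (WT2), 5134 (KO1) and 4500 (KO2) reads. The WT pair and the KO pair were far apart, and the level rose 5.56-fold (53 ± 5.64 to 295 ± 49.6 CPM, SD, n = 2; log2 fold change 2.48, standard error 0.21, edgeR adjusted p = 0.000724).

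Snhg6 had 524 (WT1), 491 (WT2), 1834 (KO1) and 1824 (KO2) reads, a rise of 3.58-fold (log2 fold change 1.84, edgeR adjusted p = 0.00177). In GENCODE M21 11.1% of its exon bases are shared with Mcmdc2, a meiotic gene on the opposite strand that was also higher (25, 43, 178 and 228 reads in WT1, WT2, KO1 and KO2; log2 fold change 2.58, edgeR adjusted p = 0.00513). Whether strand was used in counting is not given in the sources used here, so reads of this overlap may be split. Snhg4 had 321 (WT1), 445 (WT2), 920 (KO1) and 884 (KO2) reads (log2 fold change 1.25, edgeR adjusted p = 0.00798), and lost the call without KO1 (log2 fold change 1.125).

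Snhg1 (ENSMUSG00000108414, chromosome 19 from 8700801 to 8703811), which holds 8 snoRNA genes, had 3301 (WT1), 2753 (WT2), 1432 (KO1) and 1448 (KO2) reads. It fell 2.13-fold, with no overlap (186 ± 41.3 to 87.7 ± 5.98 CPM, SD, n = 2, log2 fold change -1.09, standard error 0.21, edgeR adjusted p = 0.0120), and lost the call without KO2 (log2 fold change -1.005). Snhg17 had 2028 (WT1), 1737 (WT2), 1149 (KO1) and 1111 (KO2) reads (log2 fold change -0.75, edgeR adjusted p = 0.0396); its call was lost without WT1, KO1 or KO2, and with limma-trend on log2 FPKM at both pseudocounts (limma adjusted p = 0.0620 and 0.0589).

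**Figure D3:**
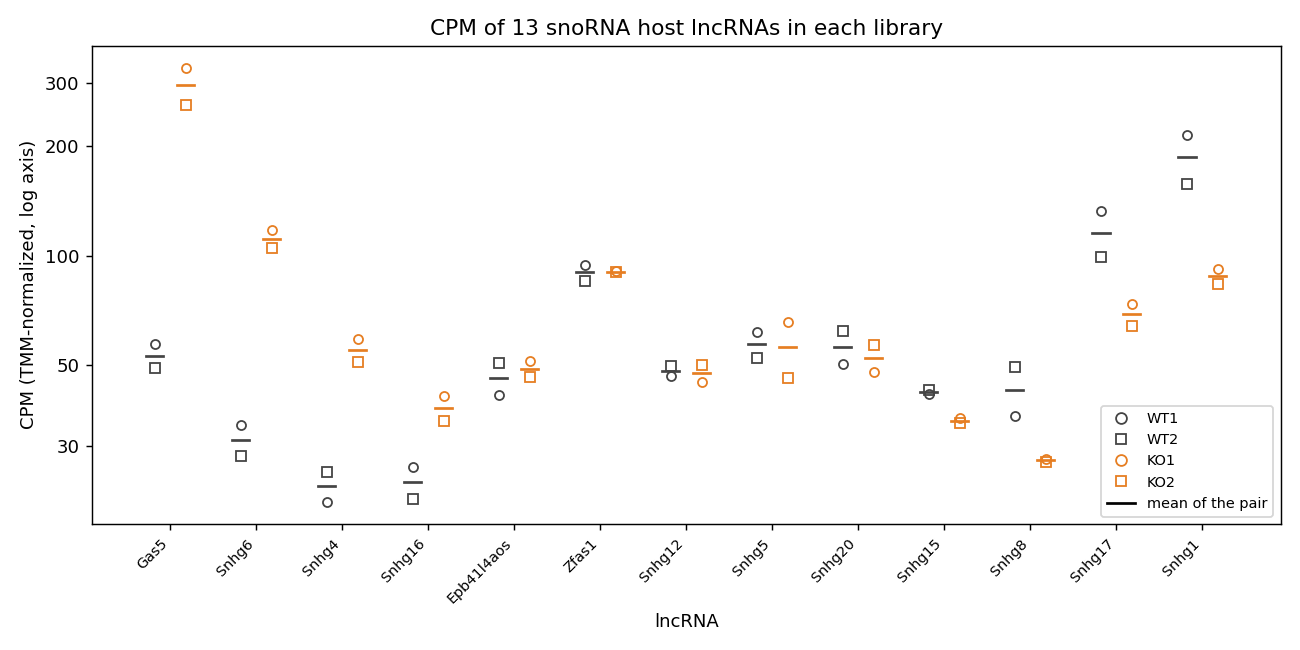
CPM (TMM-normalized, log axis) of the 13 listed snoRNA hosts in WT1, WT2, KO1 and KO2, with lines at the mean of each pair, ordered from the largest rise to the largest fall. Gas5 stands highest in the KO libraries, Snhg1 highest in the WT libraries, and Zfas1 is nearly level.

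Among the hosts that were not called, Zfas1, antisense to the start of Znfx1, had 1447 (WT1), 1495 (WT2), 1414 (KO1) and 1560 (KO2) reads, and its log2 fold change was 0.01 (standard error 0.17). Snhg12 (-0.02), Snhg5 (-0.03), Epb41l4aos (0.09) and Snhg20 (-0.11) also overlapped between genotypes. Snhg16 (log2 fold change 0.68, edgeR adjusted p = 0.0624) lay above in both KO libraries, and Snhg8 (-0.65, edgeR adjusted p = 0.0750) and Snhg15 (-0.26, edgeR adjusted p = 0.345) below. Snhg16, Snhg15 and Snhg20 lie on chromosome 11, and with chromosome medians removed they had 0.21, -0.73 and -0.57. Without WT1 the log2 fold changes were 0.80 (Snhg16) and -0.88 (Snhg8), and without WT2 they were 0.53 and -0.41. Counted by the gene table itself, 17 members contain a snoRNA gene on their strand, of which 3 were higher, 2 lower and 12 not called, with a median log2 fold change of 0.01, and these counts are close to those shares of all genes with at least 2000 reads. Snhg14, the host of the long snoRNA arrays beside Ube3a, contains 208 of them and was not called (log2 fold change 0.66, edgeR adjusted p = 0.0782). Its log2 fold change was 0.90 without WT1 and 0.43 without WT2. The 49 snoRNA genes in the other 16 hosts had 6 reads over all libraries, so host and snoRNA levels could not be compared.

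Proteins that work with these RNAs were read from lists, beside 11.0% higher and 10.7% lower over all genes tested. Of 16 snoRNP core and assembly genes 4 were higher and 0 lower, with a median log2 fold change of 0.39: Nhp2 (1.39) and Nop10 (1.20) of the box H/ACA particle, Nolc1 (1.01) and Znhit3 (0.79). The box C/D proteins Fbl (0.22), Nop56 (0.31), Nop58 (-0.27) and Snu13 (-0.09) were not called. Of 12 nonsense-mediated decay factors 4 were higher and 0 lower, with a median of 0.20: Upf1 (1.30), the helicase of the pathway, Smg8 (1.02), Upf3a (0.83) and Smg9 (0.74). The genes Upf1 and Upf3a lie on chromosome 8 and Smg8, Nhp2 and Znhit3 on chromosome 11, whose median log2 differences were 0.48 and 0.49 (chromosome 8) and 0.48 and 0.45 (chromosome 11) in KO1 and KO2. With chromosome medians removed, Upf1 (0.82) and Nhp2 (0.93) stayed over 1.5-fold, and Smg8 (0.56), Upf3a (0.35) and Znhit3 (0.32) were under it.

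Mir17hg had 1740 (WT1), 1008 (WT2), 337 (KO1) and 255 (KO2) reads. WT1 was 1.97 times WT2 in CPM, yet both stood above both KO libraries, and the level was 4.71-fold lower in Npac KO cells (85.7 ± 39.7 to 18.2 ± 4.90 CPM, SD, n = 2; log2 fold change -2.24, standard error 0.35, edgeR adjusted p = 0.00641). Omitting single libraries gave log2 fold changes of -2.65 to -1.69. The 6 microRNAs printed above, with 4 seeds, have no reads of their own here. Of 7 tested microRNA host lncRNAs 4 were lower and 0 higher (10.7% lower over all genes tested and 11.8% among other lncRNAs), with a median of -1.96. This list includes Mirg, which the rule left out of the members by name. Mir9-3hg (-2.16) and Mir100hg (-2.37) were lower with at most 114 reads in a library, and Dleu2 (-0.98) and Mir22hg (-1.02) were not called.

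**Figure D4:**
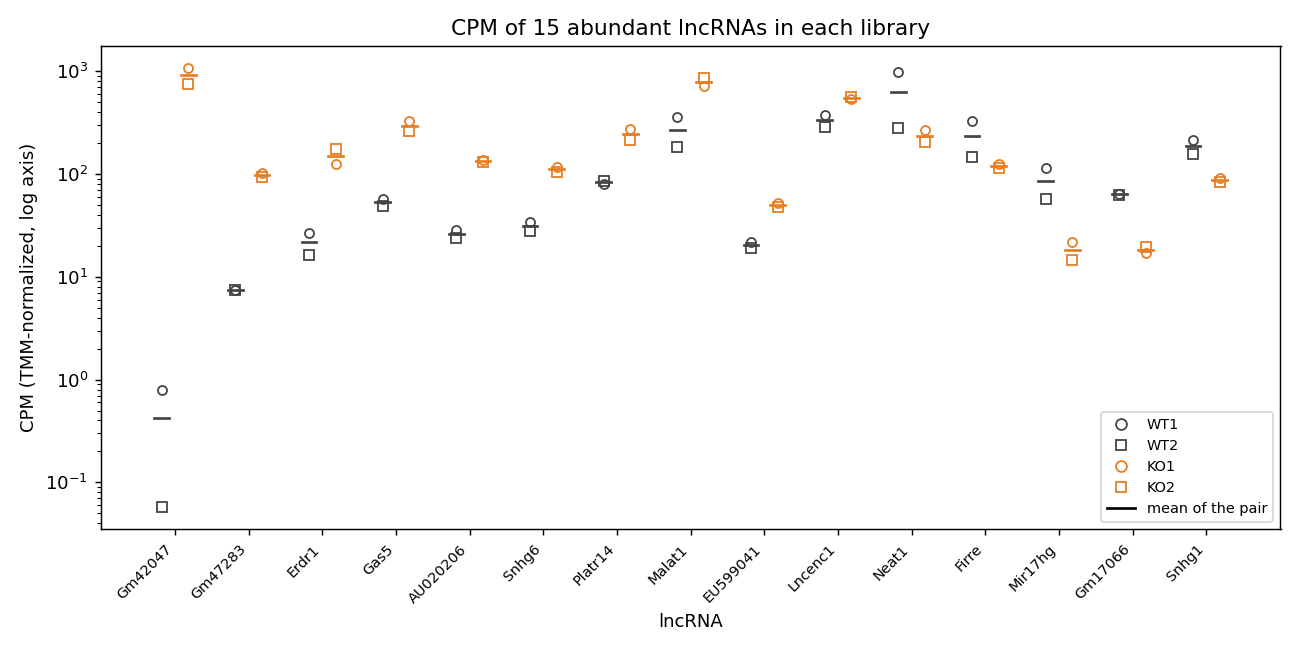
CPM (TMM-normalized, log axis) of 15 abundant lncRNAs in WT1, WT2, KO1 and KO2, with lines at the mean of each pair. The KO libraries lie above the WT libraries from Gm42047 to Lncenc1 and below them from Neat1 to Snhg1. WT1 and WT2 stand apart for Gm42047, Malat1, Neat1, Firre and Mir17hg.

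The largest rise was in Gm42047 (ENSMUSG00000110631, chromosome 8 from 122559986 to 122567917, plus strand), an lncRNA with no role named here. It had 12 (WT1), 1 (WT2), 16744 (KO1) and 13023 (KO2) reads. Nearly all its reads were in the KO libraries: the ratio of summed reads, each divided by the library totals, was 2236 (95% exact interval 1307 to 4200, counting error only; log2 fold change 11.13, standard error 0.62, edgeR adjusted p = 0.000123). The size rests on the few WT reads: the log2 fold change was 13.76 without WT1 and 10.17 without WT2. The nearest protein-coding gene, Klhdc4, starts 3678 bases away on the other strand and was also higher, with 412 (WT1), 709 (WT2), 1772 (KO1) and 1945 (KO2) reads (log2 fold change 1.74, edgeR adjusted p = 0.00383). Of the transcript 64.2% matches Gm48362 on chromosome 9, which had 76 and 46 reads in WT1 and WT2 and 2 and 0 in KO1 and KO2, and 3 more genes match over 50.9% to 53.6%. Reads of these copies can be assigned to one another.

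Erdr1 (chromosome X) and Gm47283 (chromosome Y) rose together. Erdr1 had 411 (WT1), 286 (WT2), 1936 (KO1) and 3043 (KO2) reads (log2 fold change 2.80, edgeR adjusted p = 0.00171), and Gm47283 had 114, 131, 1603 and 1605 in the same order (log2 fold change 3.71, edgeR adjusted p = 0.000123). In each gene the KO values exceeded the WT values without overlap. The whole Erdr1 transcript matches Gm47283 in GENCODE M21, so the split of reads between the 2 loci is uncertain and their rises are not independent. Mid1, a ubiquitin ligase gene 3923 bases from Erdr1, went the other way, with 624 (WT1), 530 (WT2), 29 (KO1) and 28 (KO2) reads (log2 fold change -4.35, edgeR adjusted p = 0.000414).

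The last 2 members that rose have no role named here. AU020206 (ENSMUSG00000097415, chromosome 7 from 75418786 to 75431869, minus strand), whose promoter is printed above, had 440 (WT1), 414 (WT2), 2128 (KO1) and 2244 (KO2) reads. The pairs were tight, and the level rose 5.08-fold (26.2 ± 3.61 to 133 ± 5.12 CPM, SD, n = 2; log2 fold change 2.34, standard error 0.20, edgeR adjusted p = 0.000704). EU599041, also on chromosome 7, had 331 (WT1), 333 (WT2), 805 (KO1) and 833 (KO2) reads (log2 fold change 1.30, edgeR adjusted p = 0.00614).

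Several members that fell lie beside a protein-coding gene. Gm17066, inside the span of Rbm26, which encodes an RNA-binding protein, fell to 18.3 ± 1.62 from 63.4 ± 1.02 CPM (SD, n = 2; log2 fold change -1.79, edgeR adjusted p = 0.00189). Rbm26 had 7918 (WT1), 6021 (WT2), 2069 (KO1) and 2600 (KO2) reads and was lower (log2 fold change -1.61, edgeR adjusted p = 0.00521). They lie on one strand and share 37.1% of the exon bases of Gm17066, so the falls are not separate measurements.

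Snhg1 starts 68 bases from Slc3a2, which encodes the heavy chain of amino acid transporters, on opposite strands. Slc3a2 had 9034 (WT1), 9694 (WT2), 4452 (KO1) and 5599 (KO2) reads, below WT in both KO libraries (log2 fold change -0.91, edgeR adjusted p = 0.0138). ENSMUSG00000120144, 821 bases from Arf6, a small GTPase gene, was lower (log2 fold change -1.39, edgeR adjusted p = 0.00986), and so was Arf6 (-0.88, edgeR adjusted p = 0.0194). ENSMUSG00000121095 was lower (-1.29, edgeR adjusted p = 0.00555, and -1.16 and not called without KO2). Slc17a9, which it overlaps, was not called (0.31) and Gid8, 1422 bases away, was lower (-1.27, edgeR adjusted p = 0.0233).

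B230354K17Rik fell (log2 fold change -1.43, edgeR adjusted p = 0.00890), and Cdc5l, a spliceosome gene whose start lies 139 bases from its own, had a value of -0.57 that was not called (edgeR adjusted p = 0.0536). In GENCODE M21 17.8% of the exon bases of B230354K17Rik are shared with Cdc5l and Spats1 on the opposite strand. Reads of this overlap may be split. Gm21781 fell (-1.44, edgeR adjusted p = 0.0104, and -1.135 and not called without KO1). Zbtb2, 3479 bases away and pointing the other way, had -1.13 and was not called (edgeR adjusted p = 0.0532). Gm41609, inside the span of Dlgap1, fell (-1.29, edgeR adjusted p = 0.00724, and -1.145 and not called without KO1) and Dlgap1 was not called (-0.39). For 2410003I16Rik (-1.22, edgeR adjusted p = 0.0118) the nearest gene, Cldn14, had too few reads to be tested.

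In all, 35 members overlap a protein-coding gene or have one within 5 kb, and the nearest was tested for 33. Of the 7 lower members with a tested neighbour, 3 had it called lower, and of the 5 higher members 1 had it called higher, 1 had it called lower (Erdr1 with Mid1) and 3 had it not called. For Snhg4 the nearest is a protein-coding entry of the same name, with at most 30 reads in a library. Snhg6 overlaps both Sgk3 and Mcmdc2. Sgk3, which has more reads and was not called (-0.18), was counted, while Mcmdc2 was higher (2.58). Among 21 members that were not called, 5 had a called neighbour: Znfx1 beside Zfas1 (1.19) and St6galnac2 beside Snhg16 (1.76) were higher, and Epb41l4a beside Epb41l4aos (-1.69), Slc25a36 beside Gm16185 (-0.91) and Rab10 beside Rab10os (-0.77) lower. Over all genes tested 11.0% were called higher and 10.7% lower, and a link between neighbours was not tested.

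**Figure D5:**
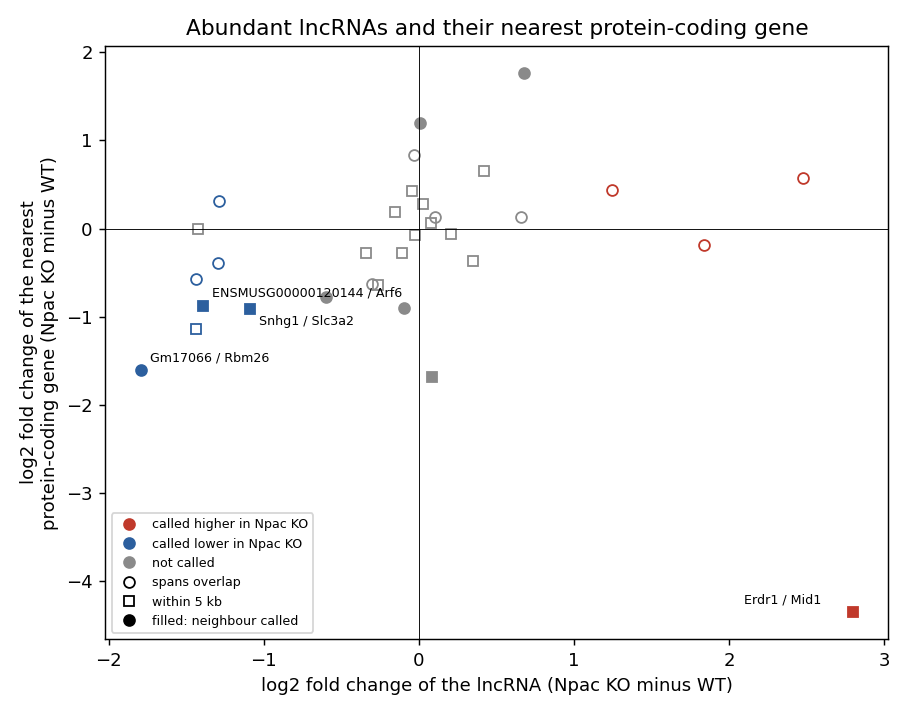
Log2 fold change (Npac KO minus WT) of the lncRNA (x axis) and of its nearest protein-coding gene (y axis) for 32 pairs, without Gm42047 with Klhdc4; circles overlap, squares lie within 5 kb, colour gives the lncRNA's call and filled points a called neighbour. The filled blue points at the lower left are Gm17066 with Rbm26, Snhg1 with Slc3a2 and ENSMUSG00000120144 with Arf6, and Erdr1 with Mid1 lies alone at the lower right.

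By chromosome, the members lie on 20 chromosomes, with 9 on chromosome 2 and 8 on chromosomes 8 and 11, whose medians were raised in KO1 and KO2. Only Gm42047 of these 8 was called higher. The median of chromosome Y, over 8 genes tested, was higher still, at 2.28 in KO1 and 2.69 in KO2. It was left in, so the log2 fold change of Gm47283 on that chromosome stayed at 3.71. With the other chromosome medians removed, 11 members were higher and 12 lower. On chromosome 11, 2 members became lower, 2410006H16Rik (log2 fold change -0.77 in place of -0.30, edgeR adjusted p = 0.0232) and Snhg15 (-0.73 in place of -0.26, edgeR adjusted p = 0.0348).

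At the limit of the selection, the members with the fewest reads were Snhg16 with 2022 reads, Gm32885 with 2049 and ENSMUSG00000120109 with 2174. Just below it were Gm10076 with 1972, Dleu2 with 1945 and Brip1os with 1933. None of the 55 members had 3 reads or fewer in both libraries of a genotype.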

How the data were processed

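Gene tables of 4 RNA-seq libraries of E14 cells were used, 2 of WT cells and 1 for each Npac KO line. The authors deposited unnormalized read counts per gene and FPKM values made from those counts; the reads were paired-end. The submitters' processing notes name HISAT2 2.0.5, featureCounts 1.5.0-p3 and mm10; the study's methods name a later HISAT release, and the strand setting is not given in the sources used here. Only 1472 of 52073 shared genes have the same start and end in GENCODE M21 (GRCm38), so gene coordinates are printed as deposited, with no build, and RefSeq sequences with theirs.

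Totals were 15850805 to 16965120 counts per library. Log2 CPM correlated at 0.973 across genes between WT1 and WT2, at 0.988 between KO1 and KO2 and at 0.913 to 0.929 between genotypes. Intervals cover counting error only. The main test was edgeR's quasi-likelihood test (version 4.0.16 in R 4.3.3, with filterByExpr and TMM). A call needed a fold change over 1.5 with an adjusted p (Benjamini-Hochberg, 18157 genes) under 0.05. The alternatives used DESeq2 1.42.0, limma 3.58.1 on log2 FPKM, other filters and normalizations, a replicate block, chromosome medians, other read limits and leaving out each library. Copies (blastn, at least 95% identity) and exon overlaps were taken from GENCODE M21 transcripts.

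Members and gene lists were chosen with earlier results of these data known. Named were members in a list, the 12 with the highest mean CPM, the 8 largest rises and falls among called members, the 3 on each side of the limit, and their nearest protein-coding genes within 5 kb. Gm2379, Snhg14, Gm16185 and Rab10os were added after their values were seen. EU599041, a called member outside these groups, is also described.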

Additional observations from a re-analysis of the deposited data

How the results depend on the processing

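With 2 libraries per genotype, small changes of the members cannot be told from the spread between libraries. The counts of 11 higher and 10 lower members stayed within 1.5 times under DESeq2, upper-quartile normalization, both count filters, FPKM with limma-trend and removal of chromosome medians. Other read limits changed how many members there were: at 1000 reads (99 members) 17 were higher and 25 lower, and at 4000 reads (22 members) 8 were higher and 3 lower, with a median log2 fold change of 0.11. With the members that overlap a protein-coding gene left out, 6 of 40 were lower and 8 higher. Leaving out each library in turn gave a median log2 fold change of -0.148 to -0.0084. Such a fit keeps a single library of a genotype, so its p-values and calls measure the spread of the other pair only. The difference in the share of counts was 0.0844 to 0.190 percentage points in those fits. Over all genes, leaving out a library gave 826 to 3571 higher and 821 to 3384 lower genes in place of 1999 and 1946, the fewest without a KO library.

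The replicate numbers come from the titles, and deviations from the group means correlated at 0.345 between samples of one number, which with 2 pairs does not show pairing. The fit with the replicate block called 14 higher and 14 lower members, and 3128 and 2994 genes over all genes.

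Of 34 named members 19 kept their call or lack of one under every alternative. Over all named members and alternatives, 378 values were on the same side of the threshold, 13 fell short of it, 16 passed it anew and 0 changed direction after being called. These counts include the fits that leave out a library, whose calls rest on the spread of the other pair alone. The cause of the changes was not tested.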

Other observations

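Several lncRNAs below the read limit also differed between genotypes. Platr15 had 620 (WT1), 239 (WT2), 7 (KO1) and 2 (KO2) reads (log2 fold change -6.58, edgeR adjusted p = 0.00222). Miat, a nuclear lncRNA, fell (log2 fold change -2.76, edgeR adjusted p = 0.00245), as did Platr28 (-2.78, edgeR adjusted p = 0.00358), Sox2ot, which overlaps Sox2 (-2.60, edgeR adjusted p = 0.00513), Panct2 (-2.01, edgeR adjusted p = 0.00858) and Halr1, of the Hoxa region (-1.57, edgeR adjusted p = 0.0218). Platr3 (1.91, edgeR adjusted p = 0.0113) and Platr27 (1.51, edgeR adjusted p = 0.0236) rose. Of 4 lncRNAs of the X inactivation centre, Tsix, the antisense partner of Xist, was lower (114, 49, 3 and 5 reads in WT1, WT2, KO1 and KO2; log2 fold change -4.36, edgeR adjusted p = 0.00715), and Xist (-1.16), Ftx (-0.75) and Jpx (0.79) were not called.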
